A study of Mus musculus with 8 samples.

Results

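The genes described here are 9 mouse genes that make, process and resolve the DNA breaks of meiosis: Spo11, Mei1, Mei4, Hormad1, Hormad2, Dmc1, Msh4, Msh5 and Mlh3. They were taken by name from the arrays, with every non-control probe that carries one of these gene names, which gave 15 of 55681 probes. They were 9 of the 26588 genes tested. RNA from whole testes of C57BL/6 mice was measured on 8 Agilent 1-colour arrays. Mice were littermates from heterozygous crosses, either Ip6k1+/+ (wild type) or Ip6k1-/- (knockout), taken at 17 or 26 dpp (days postpartum), with 2 arrays in each of the 4 groups, named as biological replicates. Ip6k1 encodes a kinase that makes inositol pyrophosphates. The allele is carried by every cell of the knockout mice, and the deleted part of the gene is not given in the sources used here.

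In early meiotic prophase, Spo11 cuts DNA with the help of accessory proteins on the chromosome axis, among them Mei1 and Mei4. The axis proteins Hormad1 and Hormad2 mark chromosomes that have not yet synapsed, and Hormad1 also promotes breaks. Dmc1 coats the resected ends and drives strand exchange with the homologous chromosome, Msh4 and Msh5 hold the joined intermediates as a pair, and Mlh3, as part of a nuclease, cuts some of them into crossovers. In the first wave of mouse spermatogenesis, early prophase cells appear before spermatids, so the mix of germ cells in a whole testis changes between the ages studied.

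Each level is the processed signal on the log2 scale relative to the 75th percentile of its array, so 0 is the 75th percentile of the array. Levels of different probes were not set against each other. Differences are log2 differences from a limma fit over all genes, with p-values adjusted by Benjamini-Hochberg, and an adjusted p under 0.05 counted as passing. In whole testes, fewer cells of a type and less RNA per cell cannot be told apart. All 9 genes were among the genes kept for testing, and 8 of the 9 were well above background on all 8 arrays. The exception, Mei4, was so on 7.

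Some arrays stood apart from their group. Knockout replicate 2 at 26 dpp correlated across genes at 0.917 to 0.948 with the 4 arrays at 17 dpp and at 0.838 to 0.873 with the other 3 arrays at 26 dpp. Its median over 10 round spermatid markers was −3.19, against 3.96 to 4.49 on those 3 arrays and −4.53 to −3.53 at 17 dpp. Its median over 7 pachytene and diplotene spermatocyte markers was 2.40, between the 17 dpp arrays and the others at 26 dpp. Its median over 5 Leydig cell markers was −2.99, below every other array (−2.31 to 1.13). Its median over 8 Sertoli cell markers was 1.31, among the other 26 dpp arrays (1.29 to 1.49). Of those 8 markers, 6 were above these other arrays and 2 below. Calls that rest on the knockout arrays at 26 dpp are therefore also given without this array. Both wild type arrays at 17 dpp lay above the other 6 arrays for 5 of 7 epididymis markers, and the medians over the 7 were −0.52 and 1.19 against −7.32 to −5.29. Rnase10 and Cst8 were the markers for which this did not hold. The part of this in the results was not tested. Of 8 Sertoli cell markers, 7 were well above background on every array. All 8 arrays came from 1 slide, with the ages in different slide rows, so row and age cannot be told apart. The Ip6k1 probe read 2.19, 2.30, 2.79 and 2.77 on the 4 wild type arrays and 1.36, 1.49, 1.41 and 1.30 on the 4 knockout arrays. All 4 knockout arrays thus read below all 4 wild type arrays. Whether that probe lies in the deleted part is not known, so its readings alone do not establish the genotype.

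Spo11 and Mlh3 rose and Mei1 and Dmc1 fell from 17 to 26 dpp in wild type testes. These were 4 of the 9 genes, where 45.1% of all genes tested passed, 18.9% higher and 26.1% lower. The share among the 9 genes is thus near that of all genes. Their median difference was 0.12, beside −0.46 over all genes. That overall median was −0.32 to −0.60 under the other scalings of the arrays. Relative to the median of all genes, the difference was 2.89 for Spo11, 2.08 for Mlh3, −1.09 for Mei1 and −0.86 for Dmc1. Over the same ages, 10 of 10 round spermatid markers and 7 of 7 pachytene and diplotene spermatocyte markers rose, and 4 of 8 spermatogonia markers and 5 of 8 Sertoli cell markers fell. How far these cell types enter the differences of the 9 genes was not tested.

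**Figure D1:**
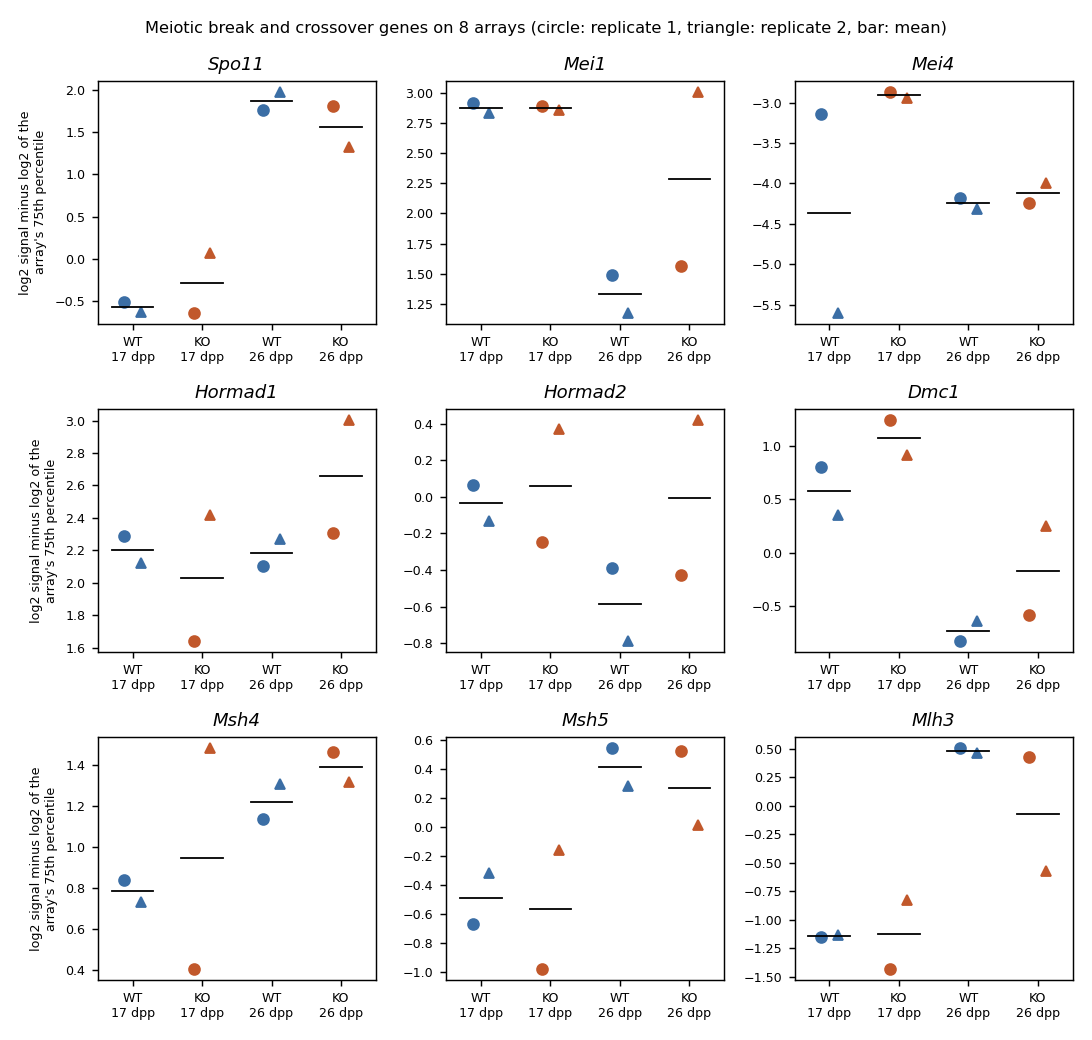
Level of each of the 9 genes on each array, as log2 signal minus log2 of the array's 75th percentile, with its own vertical scale per gene; circles are replicate 1, triangles replicate 2 and bars group means (n = 2). Spo11 and Mlh3 sit higher and Dmc1 lower at 26 dpp than at 17 dpp in wild type, and knockout replicate 2 at 26 dpp lies apart from the other 26 dpp arrays for Mei1 and Mlh3.

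Spo11 is the enzyme that makes the breaks. Its probe A_52_P660477 matches chr2:172817551-172817610 on the plus strand of mm9. The probe and that of Mei1, the break factor that moved the other way, are shown because these break formation genes passed with age in opposite directions.
Spo11: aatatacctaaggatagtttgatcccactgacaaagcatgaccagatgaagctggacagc
Mei1: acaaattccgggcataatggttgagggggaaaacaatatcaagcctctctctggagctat
Spo11 makes longer and shorter splice forms, which 1 probe does not separate. On the wild type arrays Spo11 read −0.51 and −0.63 at 17 dpp and 1.76 and 1.97 at 26 dpp. On the knockout arrays it read −0.64 and 0.06, then 1.81 and 1.33. Every array at 26 dpp lay above every array at 17 dpp, while the genotypes overlapped at 17 dpp, and at 26 dpp the lower knockout array lay below both wild type arrays and the other between them. The difference from 17 to 26 dpp was 2.44 in wild type (SE 0.327, 5.42-fold higher, limma adjusted p = 0.0080). In knockout it was 1.85 (SE 0.327, adjusted p = 0.025), and 2.09 (adjusted p = 0.0053) without replicate 2 at 26 dpp.

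Mei1, which is needed for breaks to form, ran the opposite way. Its probe A_51_P406835 matches chr15:81957137-81957196 on the plus strand of mm9. At 17 dpp the 4 arrays lay close together, with Mei1 at 2.92 and 2.83 for wild type mice and 2.89 and 2.86 for knockout mice. At 26 dpp the wild type arrays read 1.49 and 1.18 and the knockout arrays 1.56 and 3.01. Knockout replicate 2 was the highest of all 8 arrays, while the other 3 arrays at 26 dpp lay below all arrays at 17 dpp. The fall in wild type was −1.55 (SE 0.473, 2.92-fold lower, limma adjusted p = 0.042). In knockout the difference was −0.59 (SE 0.473, adjusted p = 0.39), and −1.31 (adjusted p = 0.0054) without knockout replicate 2 at 26 dpp.

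Mei4, a partner of Rec114 in break formation, was near the detection limit. One probe, A_52_P630276 (chr9:81820789-81820848), was well above background on 1 of 8 arrays and was not used. The other, A_55_P2120581 (chr9:81921039-81921098, both on the plus strand of mm9), was so on 7 arrays and missed wild type replicate 2 at 17 dpp. Wild type arrays gave −3.14 and −5.60 at 17 dpp, followed by −4.18 and −4.31 at 26 dpp. Knockout arrays gave −2.87 and −2.94, followed by −4.24 and −3.999. Apart from that 1 wild type array, every array at 26 dpp was lower than every array at 17 dpp. The wild type age difference was 0.12 (SE 0.740, adjusted p = 0.90), and −1.11 (adjusted p = 0.095) without wild type replicate 2 at 17 dpp. Its sign was also negative under 3 alternatives that changed the background correction, the scaling or both. In knockout the age difference was −1.22 (adjusted p = 0.27), and −1.34 (adjusted p = 0.27) without replicate 2 at 26 dpp.

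Hormad1, the axis protein to which break factors are recruited, has a pair of probes that overlap. They are shown because they share 20 bases, in capitals, and yet ranked the arrays differently.
A_55_P1974869: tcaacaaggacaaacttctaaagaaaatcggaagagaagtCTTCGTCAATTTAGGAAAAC
A_51_P497870: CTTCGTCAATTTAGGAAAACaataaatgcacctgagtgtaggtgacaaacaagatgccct
The first matches chr3:95389076-95389135 and the second spans chr3:95389116-95389495, on the plus strand of mm9. On the first, which stands for the gene, wild type arrays gave 2.29 and 2.12 at 17 dpp, followed by 2.10 and 2.27 at 26 dpp. Knockout arrays gave 1.64 and 2.42, followed by 2.31 and 3.003. On the second probe the wild type values were −0.83 and −0.64, followed by −0.71 and −0.39, and the knockout values were −1.94 and −0.28, followed by −0.63 and −1.44. Knockout replicate 1 at 17 dpp was the lowest array on both probes. Knockout replicate 2 at 26 dpp was the highest array on the first and the second lowest on the second. The wild type age difference of the gene was −0.02 (95% interval −0.92 to 0.88, limma adjusted p = 0.97), with a sign that changed under 1 other background correction and without either wild type replicate 1.

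Hormad2, the related axis protein that takes part in the checkpoint for unsynapsed chromosomes, has 1 probe, A_55_P2055142 (chr11:4246466-4246525, minus strand of mm9). Wild type arrays gave 0.07 and −0.13 at 17 dpp, followed by −0.39 and −0.79 at 26 dpp. Knockout arrays gave −0.25 and 0.37, followed by −0.43 and 0.42. Both wild type arrays at 26 dpp lay below both at 17 dpp, while the knockout ages overlapped. The wild type age difference was −0.55 (SE 0.387, limma adjusted p = 0.26), and that in knockout was −0.07 (adjusted p = 0.91), or −0.49 (adjusted p = 0.25) without replicate 2 at 26 dpp.

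Dmc1, the recombinase of meiosis, was measured by 3 probes on the minus strand of mm9. The gene is represented by A_55_P2028698 (chr15:79415293-79415352), and A_55_P2147066 (chr15:79419182-79419241) and A_51_P289131 (chr15:79392424-79392483) also passed the filter. A pair of them is shown because probes of different sequence had the same direction with age.
A_55_P2028698: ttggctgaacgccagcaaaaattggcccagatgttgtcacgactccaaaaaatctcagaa
A_55_P2147066: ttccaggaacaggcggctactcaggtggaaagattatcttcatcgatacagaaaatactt
On the representative probe, Dmc1 read 0.80 and 0.35 on the wild type arrays at 17 dpp, followed by −0.83 and −0.64 at 26 dpp. On the knockout arrays it read 1.24 and 0.91, followed by −0.59 and 0.25. Every array at 26 dpp was lower than every array at 17 dpp, and at each age both knockout arrays were above both wild type arrays. The wild type age difference was −1.31 (SE 0.359, 2.48-fold lower, limma adjusted p = 0.033). It was −1.05 on A_55_P2147066 (adjusted p = 0.058 over all kept probes) and −1.28 on A_51_P289131 (adjusted p = 0.086), neither of which passed by itself. In knockout it was −1.25 (SE 0.359, adjusted p = 0.065), and −1.67 (adjusted p = 0.0063) without replicate 2 at 26 dpp.

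Msh4 and Msh5 act as a pair that stabilises crossover intermediates. Both probes of each gene are shown, because those of Msh4 moved alike and those of Msh5 did not.
Msh4 A_66_P107007: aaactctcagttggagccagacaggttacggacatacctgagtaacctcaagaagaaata
Msh4 A_55_P2097773: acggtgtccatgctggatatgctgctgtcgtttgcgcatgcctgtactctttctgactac
Msh5 A_55_P2273811: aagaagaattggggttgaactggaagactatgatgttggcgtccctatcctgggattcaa
Msh5 A_51_P429865: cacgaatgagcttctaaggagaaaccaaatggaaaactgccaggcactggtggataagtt
The Msh4 probes match chr3:153520459-153520518 and chr3:153535231-153535290, and the Msh5 probes chr17:35180982-35181041 and chr17:35165774-35166176, all on the minus strand of mm9. Msh4 on A_66_P107007 read 0.84 and 0.73 on the wild type arrays at 17 dpp, followed by 1.14 and 1.30 at 26 dpp. On the knockout arrays it read 0.41 and 1.48, followed by 1.46 and 1.32. The wild type arrays of the ages did not overlap, and the knockout arrays at 17 dpp lay on either side of all others. The wild type age difference was 0.43 (SE 0.378, limma adjusted p = 0.36) on this probe and 0.34 on the other.

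Msh5 on A_55_P2273811, which stands for the gene, read −0.67 and −0.32 on the wild type arrays at 17 dpp, followed by 0.54 and 0.28 at 26 dpp. On the knockout arrays it read −0.98 and −0.16, followed by 0.52 and 0.01. Every array at 26 dpp was above every array at 17 dpp. The wild type age difference was 0.90 (SE 0.367, limma adjusted p = 0.085). On A_51_P429865 the wild type values were −1.85 and −1.505, followed by −2.38 and −2.34, and the knockout values were −1.77 and −1.32, followed by −2.28 and −1.34. This probe ran the other way in wild type, with both arrays at 26 dpp below both at 17 dpp and a difference of −0.68 (adjusted p = 0.17 over all kept probes). The direction of Msh5 with age therefore depends on the probe.

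**Figure D2:**
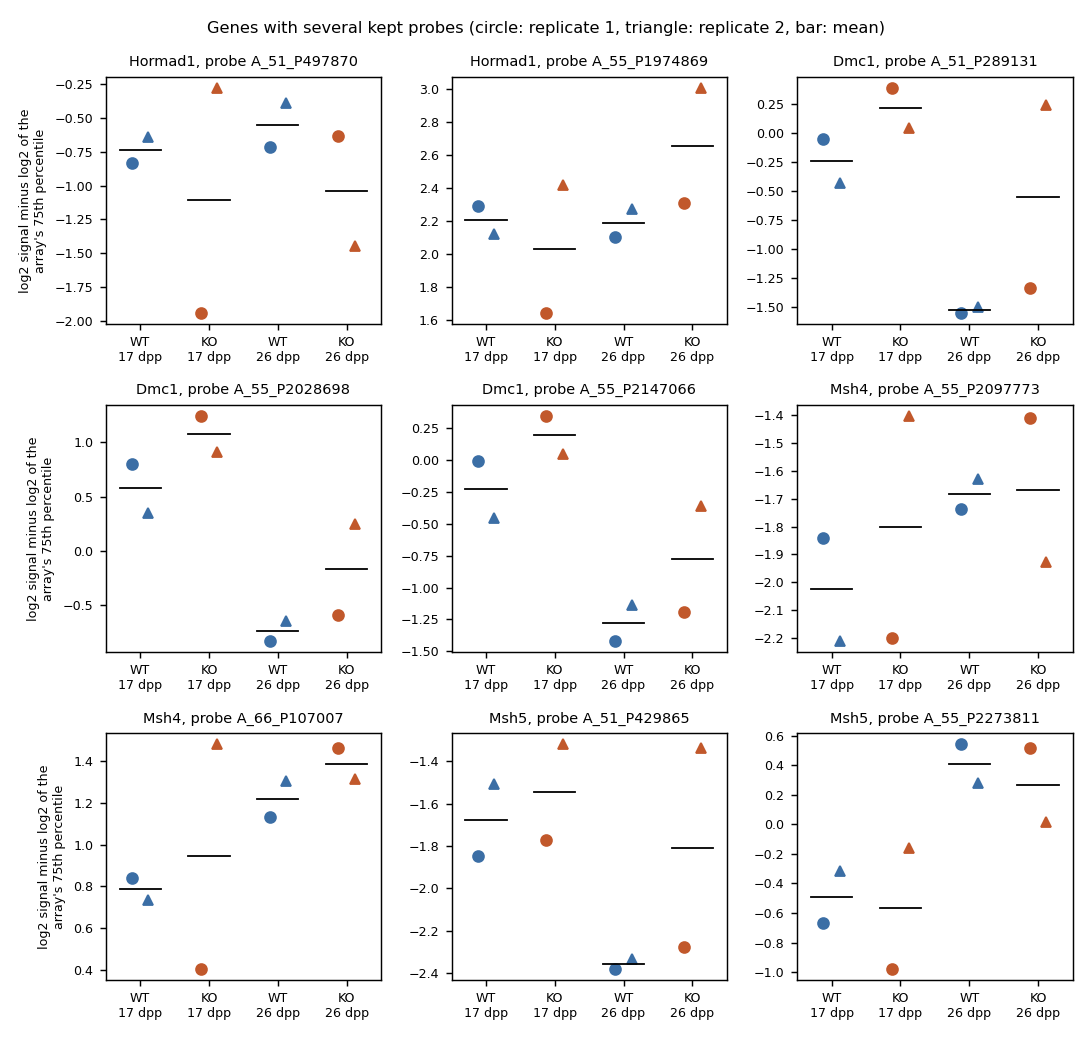
Level on each array of the 9 kept probes of Dmc1, Hormad1, Msh4 and Msh5, as log2 signal minus log2 of the array's 75th percentile; circles are replicate 1, triangles replicate 2 and bars group means (n = 2). The 3 Dmc1 probes are lower at 26 dpp in wild type, and the pair for Msh5 runs in opposite directions.

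Mlh3, a subunit of the nuclease that makes most crossovers, has 1 probe, A_51_P342786 (chr12:86576360-86576419, minus strand of mm9). Wild type arrays gave −1.15 and −1.13 at 17 dpp, followed by 0.504 and 0.46 at 26 dpp. Knockout arrays gave −1.43 and −0.82, followed by 0.42 and −0.57. All arrays at 26 dpp were above all arrays at 17 dpp, with knockout replicate 2 between the 17 dpp arrays and the other 3. The rise in wild type was 1.62 (SE 0.393, 3.07-fold higher, limma adjusted p = 0.025). In knockout it was 1.05 (SE 0.393, adjusted p = 0.12), and 1.55 (adjusted p = 0.0083) without replicate 2 at 26 dpp.

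These calls rest on few arrays. Without any 1 of the 4 wild type arrays, 0 of the 9 genes passed in the wild type age comparison, and at most 184 of all 26588 genes did. Without either knockout array at 17 dpp, Spo11 and Mlh3 passed and Mei1 and Dmc1 did not. The sizes moved less: over the alternatives the wild type age difference lay between 2.26 and 2.54 for Spo11, 1.37 and 1.64 for Mlh3, −1.70 and −1.39 for Mei1, and −1.54 and −1.09 for Dmc1. Without overlap between ages in wild type on the representative probes, Spo11, Msh4, Msh5 and Mlh3 were higher at 26 dpp and Mei1, Hormad2 and Dmc1 lower. Among all genes the ages did not overlap for 32.1% in the higher and 55.8% in the lower direction.

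In knockout testes, Spo11 alone of the 9 genes passed from 17 to 26 dpp, where 15.8% of all genes passed, 7.62% higher and 8.18% lower. Without knockout replicate 2 at 26 dpp, 4 of the 9 passed, Spo11 and Mlh3 higher and Mei1 and Dmc1 lower, where 59.7% of all genes passed. That fit leaves 1 knockout array at 26 dpp, which is assumed to vary like the other groups. Without knockout replicate 1 at 17 dpp, or without any 1 of the 4 wild type arrays, 0 of the 9 passed. The median difference in knockout was 0.45, beside −0.31 over all genes. On the representative probes, ages in knockout did not overlap for Spo11, Msh5 and Mlh3, all higher, and for Mei4 and Dmc1, both lower. Among all genes this held for 22.3% higher and 38% lower.

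**Figure D3:**
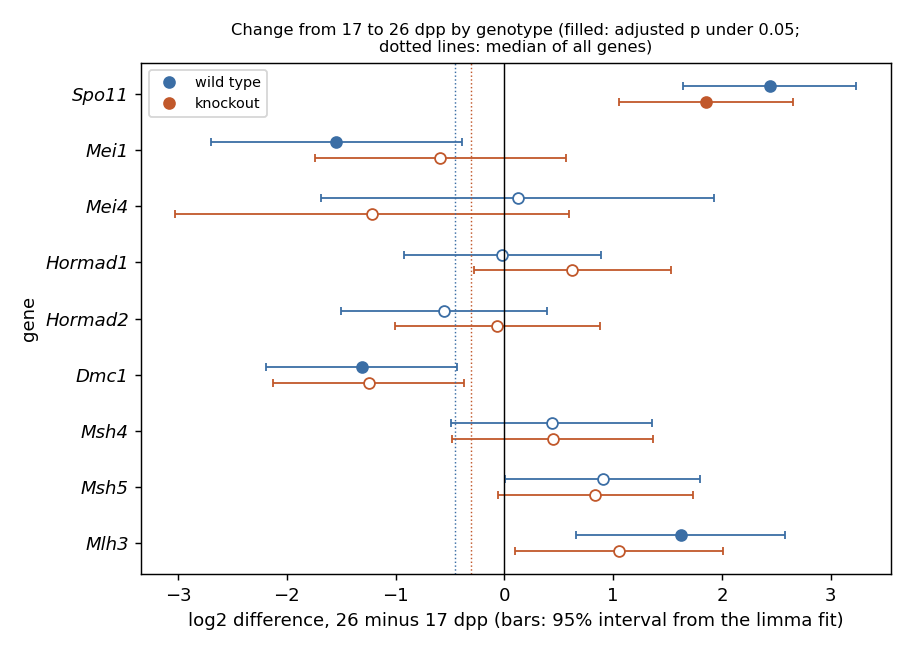
Log2 difference from 17 to 26 dpp for each gene, in wild type (blue) and knockout (orange), with 95% intervals from the limma fit (n = 2 arrays per group); filled points have an adjusted p under 0.05 and dotted lines mark the median of all genes. Spo11, Mei1, Dmc1 and Mlh3 are filled in wild type and only Spo11 in knockout.

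At 17 dpp, 0 of the 9 genes passed between knockout and wild type, where 0.0903% of all genes passed, 0.00376% higher and 0.0865% lower. None had an unadjusted p under 0.05 in limma (0 of 9, beside 383 of all 26588 genes). Differences ran from −0.17 for Hormad1 to 1.46 for Mei4, with a median of 0.09 beside 0.02 over all genes. Both knockout arrays were above both wild type arrays for Mei4 and Dmc1, and no gene was below without overlap. Among all genes, 16% were higher and 12.8% lower without overlap. The Mei4 difference (SE 0.740, limma adjusted p = 1) became 0.24 without wild type replicate 2, the array on which its probe was not well above background. The Dmc1 difference was 0.50 (95% interval −0.38 to 1.38, adjusted p = 1).

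The knockout arrays at 17 dpp differed from each other more than the wild type arrays did for 6 of the 9 genes. Across all genes the knockout pair was also less alike, correlating at 0.9795 against 0.9892 for the wild type pair. Knockout replicate 2 exceeded replicate 1 by 0.70 for Spo11, 0.78 for Hormad1, 0.61 for Hormad2, 1.07 for Msh4, 0.82 for Msh5 and 0.60 for Mlh3. For Mei1 and Mei4 the arrays differed by −0.03 and −0.07, and for Dmc1 by −0.33. The median of the pachytene and diplotene spermatocyte markers also differed between these arrays, at −3.89 in replicate 1 and −0.79 in replicate 2, beside −3.73 and −2.64 in wild type. Its part in the differences was not tested.

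At 26 dpp, 0 of the 9 genes passed between knockout and wild type, where 0.00752% of all genes passed. None had an unadjusted p under 0.05 in limma (0 of 9, beside 653 of all genes). The largest differences were 0.95 for Mei1 (95% interval −0.20 to 2.11), 0.58 for Hormad2, 0.56 for Dmc1 and −0.55 for Mlh3 (95% interval −1.51 to 0.41), each with an adjusted p of 0.53. The median of the 9 was 0.17, beside 0.08 over all genes. Without overlap on the representative probes, Mei1, Hormad1, Dmc1 and Msh4 were higher and Mlh3 was lower in knockout. Among all genes this held for 15.3% higher and 17% lower. The genotypes overlapped on the other kept probe of Hormad1 (difference −0.48) and of Msh4 (0.015). For Dmc1 they overlapped on A_55_P2147066 and not on A_51_P289131, where knockout was higher.

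Most of these differences came nearer 0 without knockout replicate 2. That array lay outside the range of the other 3 arrays at 26 dpp for 8 of the 9 genes, above it for 5 and below it for 3, and for 88.2% of all genes. Msh4 was the gene inside the range. On the line from the wild type mean at 26 dpp to that at 17 dpp, this array lay 22.1% of the way for Spo11, 108% for Mei1, 74.9% for Dmc1 and 64.8% for Mlh3. Without it, the differences between knockout and wild type at 26 dpp ran from −0.06 for Spo11 to 0.24 for Msh4, and Msh5 changed sign to 0.11. Then 0 of the 9 passed, where 0.0376% of all genes passed. Without knockout replicate 1 instead, 3 passed, Mei1 at 1.68 (adjusted p = 0.0044), Dmc1 at 0.98 (adjusted p = 0.039) and Mlh3 at −1.05 (adjusted p = 0.035), where 45.2% of all genes passed.

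**Figure D4:**
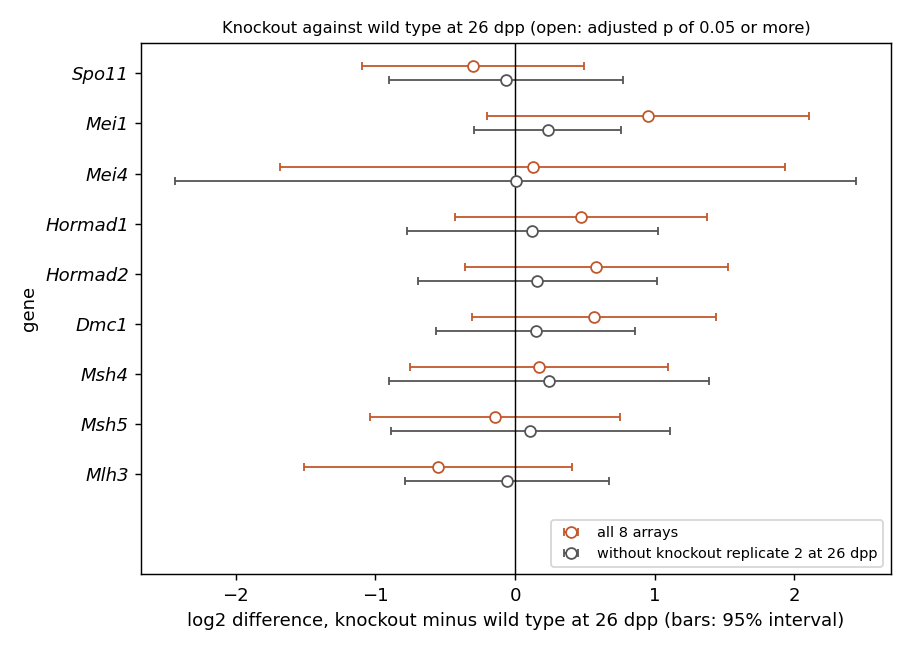
Log2 difference between knockout and wild type at 26 dpp for each gene, with all 8 arrays (orange) and without knockout replicate 2 at 26 dpp (grey); bars are 95% intervals from the limma fit and open points have an adjusted p of 0.05 or more. No gene passed either way, and the differences of Mei1 and Mlh3 lie nearer 0 without that array.

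Averaged over both ages, 0 of the 9 genes passed between knockout and wild type, and 0% of all genes did. In limma, 0 of the 9 and 573 of all genes had an unadjusted p under 0.05. On the representative probe of Dmc1, knockout arrays were above the wild type arrays of their age in 4 of 4 cases. On A_55_P2147066, knockout replicate 1 at 26 dpp (−1.19) was below wild type replicate 2 (−1.14). The Dmc1 average was 0.53 (SE 0.254, 95% interval −0.09 to 1.15, limma adjusted p = 0.83), and 0.32 without knockout replicate 2 at 26 dpp. The difference of the knockout effect between ages did not pass for any of the 9 either (0 of 9 at an unadjusted p under 0.05, beside 504 of all genes), where 0% of all genes passed. Without knockout replicate 1 at 26 dpp, 2 of the 9 passed in the average and 1 in the difference between ages, where 29.5% and 32.5% of all genes passed.

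Other genes of the same steps were counted in the wild type age comparison, where 18.9% of all genes rose and 26.1% fell. Of 6 partners in break formation, 5 were tested (Ankrd31 was not), and 3 fell and 0 rose. Rec114, the partner of Mei4, fell by 1.95 (limma adjusted p = 0.023). Top6bl, the partner subunit of Spo11, fell by 1.82 (adjusted p = 0.018). Prdm9, the methyltransferase that places the breaks, fell by 1.47 (adjusted p = 0.028). Zcwpw1, which reads the marks of Prdm9, differed by −1.39 (adjusted p = 0.065) and Iho1, a partner of Hormad1, by −0.42 (adjusted p = 0.27). Their median was −1.47, beside −0.46 over all genes, so Spo11 (2.44) moved opposite to the named partners that passed.

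Of 24 genes of strand exchange and end processing, 3 rose and 3 fell, with a median of −0.26. Among all genes 18.9% rose and 26.1% fell. Psmc3ip, which helps Dmc1 to exchange strands, rose by 2.32 (limma adjusted p = 0.011), Rpa1, a subunit of the single-strand binding complex, by 1.96, and Brme1, which acts with Brca2, by 1.75. Among those that fell, Rad50 of the end-processing complex fell by 1.39 (adjusted p = 0.015) and Rpa3, the smallest subunit of the single-strand binding complex, by 1.24 (adjusted p = 0.034). Rpa2 (−1.49, adjusted p = 0.051) and Palb2 (−1.21, adjusted p = 0.052) did not pass. Of 13 genes of meiotic signalling, 0 rose and 3 fell, beside the same shares of all genes, with a median of −0.28. The kinases Atm and Chek2 fell by 2.11 and 1.92, and Trip13, which removes Hormad proteins from the axis, by 1.70 (adjusted p = 0.045). Chek2 was dim: it was well above background on 7 arrays and read −4.76 and −5.41 on the wild type arrays at 26 dpp. Rad1 (−0.84) and Mdc1 (0.81) did not pass.

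Of 19 other genes of crossover designation and resolution, 4 rose and 6 fell, beside 18.9% and 26.1% of all genes, with a median of −0.02. Cntd1 and Prr19, which act together in crossover designation, rose by 2.37 (limma adjusted p = 0.049) and 2.12. The nuclease scaffold Slx4 rose by 2.32, and the gene listed as Spo16 by 2.19. The probe of the latter lies at chr9:108297696-108299562 on mm9, and whether it measures Spo16 was not checked. The counts and median of this list include it. Among those that fell were Tex11 by 2.26, the helicase Fancm by 1.51, the exonuclease Exo1 by 1.36, Eme1 by 1.20 and Gen1 by 0.91. Mus81 (1.22) and Rmi1 (0.67) did not pass. In the knockout comparisons with wild type 0 genes of these 4 lists passed. In knockout from 17 to 26 dpp, Psmc3ip, Prr19 and Slx4 rose, by 2.07, 1.60 and 1.65, and Rad50 and Eme1 fell, by 1.26 and 0.97. Among all genes 7.62% rose and 8.18% fell. Of the 24 genes of strand exchange 1 rose and 1 fell, and of the 19 crossover genes 2 rose and 1 fell. Of the 5 break formation partners and the 13 signalling genes 0 passed. Without knockout replicate 2 at 26 dpp, the median knockout age difference of the break formation partners moved from −1.11 to −1.66. It moved from 0.0038 to −0.23 for strand exchange, from −0.17 to −0.42 for signalling and from 0.11 to −0.14 for the crossover genes. Over all genes the median moved from −0.31 to −0.49.

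**Figure D5:**
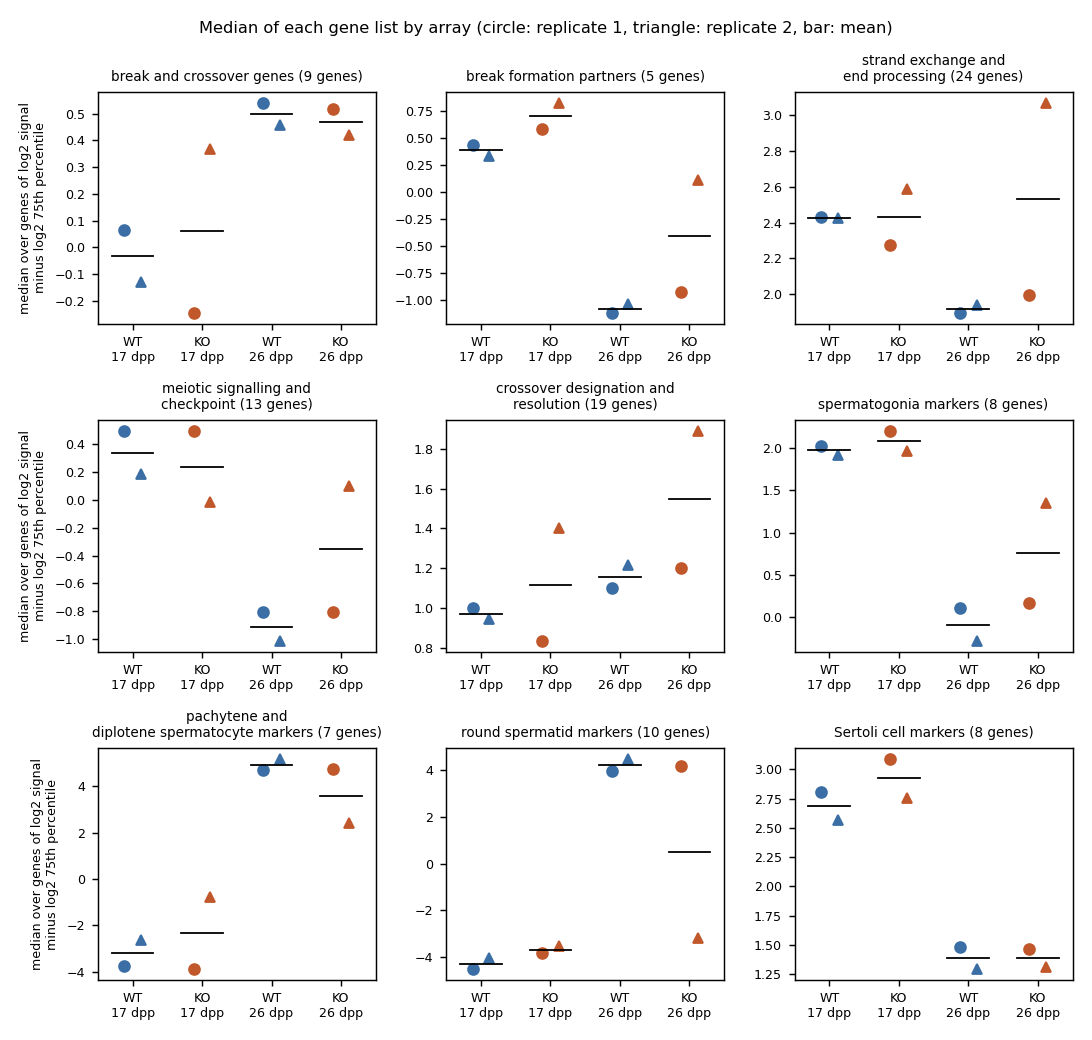
Median level of each gene list on each array, as the median over genes of log2 signal minus log2 of the array's 75th percentile; circles are replicate 1, triangles replicate 2 and bars group means (n = 2). Round spermatid markers on knockout replicate 2 at 26 dpp (−3.19) sit near the 17 dpp arrays, and its break formation partners (0.11) lie above the other 26 dpp arrays.

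Among 15038 other genes well above background on all arrays, the genes whose levels followed each member most closely over the 8 arrays were found by Pearson's correlation. These arrays share the 2 ages and 1 slide, so the values are descriptions. They were Nek2 (0.998) and Pabpc6 (0.998) for Spo11, Rac1 (0.999) and Msh6 (0.999) for Mei1, and Parn (0.995) and Wif1 (0.992) for Dmc1. For Mlh3 they were Zbtb3 (0.999) and Wfdc3 (0.997), for Msh5 Cntd1 (0.991) and Celsr2 (0.990), and for Msh4 Kbtbd8 (0.966) and Kif24 (0.964). Mei4 was left out, being not well above background on 1 array. For Hormad1 they were Mbtd1 (0.989) and Abca5 (0.961), and for Hormad2 Upf1 (0.993) and Dennd1a (0.991). Msh6, a mismatch repair gene of the same family as Msh4 and Msh5, gave 4.59 and 4.57 on the wild type arrays at 17 dpp, 3.69 and 3.51 on those at 26 dpp, and 4.71 on knockout replicate 2 at 26 dpp. Among the 9 genes themselves, Mlh3 correlated at 0.952 with Spo11 and at −0.953 with Dmc1 over the 8 arrays, and Hormad1 with Mei1 at 0.133.

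Promoter windows from RefSeq, on GRCm38.p6, were matched for 8 of the 9 genes, all but Spo11. In the 250 bases before each start, both strands were searched for letters that known regulators of meiotic genes bind. The STRA8 motif CNCCTCAG was found in 6.42% of 32851 windows and in those of Hormad2 and Msh5. The E2F motif GCGGGAA was found in 3.82% of windows and in those of Hormad1 and Msh5. The CRE half-site TGACGT (6.47% of windows) and the MYB motif CAACTG (11.1% of windows) were in no window of the 8 genes. The windows of Msh5 and Hormad2 are shown because they share the STRA8 letters while their representative probes moved in opposite directions with age in wild type, without passing the test (0.90 and −0.55). On the other kept probe of Msh5 the difference was −0.68, the same direction as Hormad2. Capitals mark the matches, on either strand, with the E2F match in Msh5 as well, which does not overlap the other.
Msh5 (chr17:35046623-35046872, minus strand): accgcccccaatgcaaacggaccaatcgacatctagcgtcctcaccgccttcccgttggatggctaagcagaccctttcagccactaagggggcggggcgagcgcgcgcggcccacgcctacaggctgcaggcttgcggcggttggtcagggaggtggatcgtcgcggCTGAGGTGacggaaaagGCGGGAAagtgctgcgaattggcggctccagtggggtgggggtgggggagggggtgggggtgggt
Hormad2 (chr11:4441083-4441332, minus strand): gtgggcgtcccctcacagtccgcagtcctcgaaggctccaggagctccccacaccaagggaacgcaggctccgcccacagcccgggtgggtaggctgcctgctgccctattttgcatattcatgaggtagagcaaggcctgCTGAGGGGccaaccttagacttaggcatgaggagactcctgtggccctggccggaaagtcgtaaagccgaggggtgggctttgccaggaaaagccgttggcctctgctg
A match of letters is a description of the window and shows no binding.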

How the data were processed

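Per the file headers, the arrays were read with Agilent Feature Extraction 11.5.1.1, and the deposited processed signal is an intensity on a linear scale, background-corrected and not scaled between arrays. The deposited value table holds log2 values that followed log2 of that signal minus the 75th percentile (correlation 0.999906 to 0.999946). Its direction and centring need no assumption, and how spots were combined is unknown. Its column medians were −3.69 and −3.69, −3.67 and −3.63, −3.59 and −3.64, and −3.62 and −3.84, in the order wild type and knockout at 17 dpp, then at 26 dpp.

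Outlier spots were dropped (103 to 200 of 59305 on an array), saturated spots numbered 0, and spots of a probe were averaged. Between 59.8% and 65.6% of spots were well above background. A probe stayed if both arrays of 1 or more groups had it well above background (37813 probes), and a gene was its kept probe with the highest mean. Values of other probes come from a fit over kept probes. The tests used limma 3.58.1 (R 4.3.3; files read through data.table, version 1.17.8), with 1 mean per group over 8 arrays (n = 2 per group), two-sided, and the code was checked on simulated data. The number of arrays limits the precision. Accessions gave 27509 probes their current symbol. Probe coordinates are on mm9, and exons or UTRs were not assigned. Named genes were all 9 genes with every probe, list genes that passed in wild type or a knockout comparison, up to 2 others per list with the largest difference, and the 2 genes most like each of the 9. The genes, lists and tests were chosen with earlier results of these data known. Replicate numbers were not used to pair arrays across groups in the main tests. Results of some list genes are not reported here.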

Additional observations from a re-analysis of the deposited data

How the results depend on the processing

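Alternatives covered the background correction and scaling, the filter on dim probes, the deposited log2 values, each probe by itself, a variance trend, array weights, a fit of only the groups compared, a replicate block and leaving out each array. At 17 dpp, 0 of the 9 genes passed between genotypes under all 19 alternatives, with 0 to 39 of all genes. Between genotypes at 26 dpp, 0 passed, and 0 to 3 without 1 array. For the average it was 0 to 2 and for the difference between ages 0 to 1. In the wild type age comparison 0 to 4 passed without 1 array, against 4; it was 5 with array weights (Msh5 added, adjusted p = 0.017), 5 with only the groups compared, and 3 with no filter on dim probes (Mei1 lost, adjusted p = 0.053). In the knockout age comparison 0 to 4 passed without 1 array, against 1; it was 2 when probes had to be well above background everywhere, 0 with array weights and 0 with only the groups compared. With the replicate block, 2 passed in wild type and 0 in knockout. Deviations of same-numbered arrays from their group means correlated between groups at −0.4 to 0.11. With 2 arrays per group, this cannot show whether same-numbered arrays share more than a label. Signs of differences near 0 turned: Mei4 in the wild type age comparison was −0.10 and −0.20 with normexp (quantile and 75th percentile), −0.12 with quantile scaling and −1.11 to 1.35 without 1 array, and Hormad1 was 0.0071 with normexp and the 75th percentile and −0.10 to 0.064 without 1 array. Without 1 array, the knockout age difference ran from −0.092 to 0.98 for Msh4, −0.49 to 0.36 for Hormad2 and −1.31 to 0.13 for Mei1, and the genotype difference of Msh5 at 26 dpp from −0.40 to 0.11. The cause of these changes was not tested, beyond the smaller number of arrays. With 2 arrays per group, wild type age differences of up to 0.90 did not pass.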

Other observations

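Some mismatch repair relatives of Msh4, Msh5 and Mlh3 were looked at after their values were seen. In wild type from 17 to 26 dpp, Pms1 fell by 1.64 (limma adjusted p = 0.020) and Pms2 by 1.87 (adjusted p = 0.029), while Mlh3 rose by 1.62. Msh6 differed by −0.98 (adjusted p = 0.067) and Msh3 by −0.05 (adjusted p = 0.87). On knockout replicate 2 at 26 dpp, Pms2 read 0.91, beside −0.90 to −0.60 on the other 3 arrays at 26 dpp.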
